A study of Mus musculus with 15 samples.

Results

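The untreated state of mouse fibroblasts is described here by 3 measurements made on cells that received no ultraviolet light: transcript levels from RNA-seq, open chromatin at promoters from FAIRE-seq, and acetylation of histone H3 at lysine 27 (H3K27ac) at the same promoters from ChIP-seq. The members are the 8 untreated samples of 15 in the series, chosen by their labels: 3 RNA libraries, 2 FAIRE samples, 2 H3K27ac samples and 1 input DNA sample. The other samples were irradiated and enter no value below. The cells were NIH3T3, an established line of mouse embryonic fibroblasts, seeded at 3000 cells/cm2 2 days earlier and grown in medium with 10% serum. The untreated cells have no further agent or allele in the labels, and a single line limits what they stand for. The labels do not say whether the RNA replicates came from separate cultures, so the spread between them may be technical.

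In growing cells, DNA at an active promoter is largely free of nucleosomes and the flanking nucleosomes carry H3K27ac, which is deposited by the acetyltransferases p300 and CBP and is widely used as a mark of active promoters and enhancers. FAIRE recovers the nucleosome-poor DNA directly, because crosslinked protein holds the rest of the chromatin out of the aqueous phase during phenol extraction. Fibroblasts are mesenchymal cells that secrete collagen and fibronectin, respond to platelet-derived growth factor, and keep the genes of epithelial, muscle, blood and other lineages at low levels.

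Transcript levels are given as CPM, the read count of a gene scaled to a fixed total per library and corrected for library composition. CPM is not divided by transcript length, so the order of genes by CPM combines abundance and length. The RNA libraries held 18183266, 21708369 and 22032701 reads in genes, and 18557, 18350 and 18787 genes had a read in libraries 1, 2 and 3. Of the 19069 genes measured by RNA, all had a promoter window of 1000 bases in the chromatin tables. A promoter was used when its window held at least 10 input reads, which left 17813 promoters and removed 1256. The pooled FAIRE sample held 1032412 reads in promoter windows (median 24 per window), the pooled H3K27ac sample 4015279 (median 49) and the input 572576 (median 26). Chromatin values are the authors' log2 enrichment over input. A value of 1 is 2-fold over the scaled input after 16 reads are added to each. At a value near 1 the ratio without the added reads is higher and depends on the reads in the window. For FAIRE it was 3.27-fold at Zeb2 (value 1.02) and 2.68-fold at Erbb2 (value 1.05). The replicates were merged in the deposited tables, so the chromatin values have no spread between samples and no test was made on them. A 95% interval given with a median is a binomial interval over promoters, and an interval given with a share covers counting error only.

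RNA library 1 stood apart from the others. Across genes of at least 10 CPM, the Pearson correlation of log2 levels was 0.970 between libraries 1 and 2 and 0.970 between libraries 1 and 3, against 0.991 between libraries 2 and 3. Of 8642 genes at this level, 51 (0.590%) were at least 2-fold higher in library 1 than in both others and 96 (1.11%) at least 2-fold lower, against 0 higher (0.00%) and 2 lower (0.0231%) for library 2 and 1 higher (0.0116%) and 0 lower (0.00%) for library 3. Results that rest on library 1 are given below with and without it.

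Promoter openness and acetylation were low at genes with few reads, differed most between the lowest and the second class of expressed genes, and differed less between the classes above. Genes of 1 CPM or more were placed in 4 equal classes. The 43 genes without a read in any library had medians of 0.05 (-0.07 to 0.30) and -0.44 (-0.52 to 0.26), and 8 of them (18.6%) had a FAIRE and 12 (27.9%) an H3K27ac enrichment of at least 1, beside 1.29% and 3.19% of genes with reads under 1 CPM. In the 5115 genes with reads but under 1 CPM, the median enrichment was -0.09 for FAIRE (interval -0.10 to -0.08) and -0.55 for H3K27ac (-0.56 to -0.54). In the lowest class of the others, from 1.00 to 5.44 CPM, the medians were -0.02 (-0.03 to -0.0023) and -0.26 (-0.29 to -0.23). In the second class, from 5.44 to 27.6 CPM, they were 1.07 (1.04 to 1.10) and 2.65 (2.60 to 2.70). The third class, up to 74.4 CPM, had medians of 1.29 and 3.09, and the highest class, up to 13597 CPM, had 1.44 and 3.38. The step between the lowest and the second class was 1.09 for FAIRE and 2.91 for H3K27ac, and the whole step from the second to the highest class was 0.37 and 0.73. The medians of the lowest class depended on library 3: without it they were 0.06 for FAIRE and -0.03 for H3K27ac, without library 2 -0.04 and -0.35, and without library 1 -0.02 and -0.26. They were 0.04 and 0.31 over promoters with at least 30 input reads, and 0.40 and 1.24 when the classes began at 2 CPM.

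In finer bins of CPM, added after the data were seen, the H3K27ac share differed most between 2 and 16 CPM, and the FAIRE share went on to higher values above 16 CPM. Of all 17813 promoters, 54.1% had an H3K27ac enrichment of at least 1 and 37.1% a FAIRE enrichment of at least 1. The share with H3K27ac was 5.13% at 0.5 to 1 CPM, 10.4% at 1 to 2 CPM, 28.7% at 2 to 4 CPM, 59.5% at 4 to 8 CPM, 84.9% at 8 to 16 CPM and 93.5% at 16 to 32 CPM. From there it reached 97.3% (exact binomial interval 95.8 to 98.4%) in the 675 genes of 256 CPM or more. The FAIRE share had the same order at lower values: 3.82% at 1 to 2 CPM, 30.2% at 4 to 8 CPM, 52.6% at 8 to 16 CPM and 84.9% (82.0 to 87.5%) at 256 CPM or more. At 4 to 8 CPM the middle 50% of promoters ran from -0.03 to 2.82 in H3K27ac, so promoters with and without the mark were both common at this level.

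**Figure D1:**
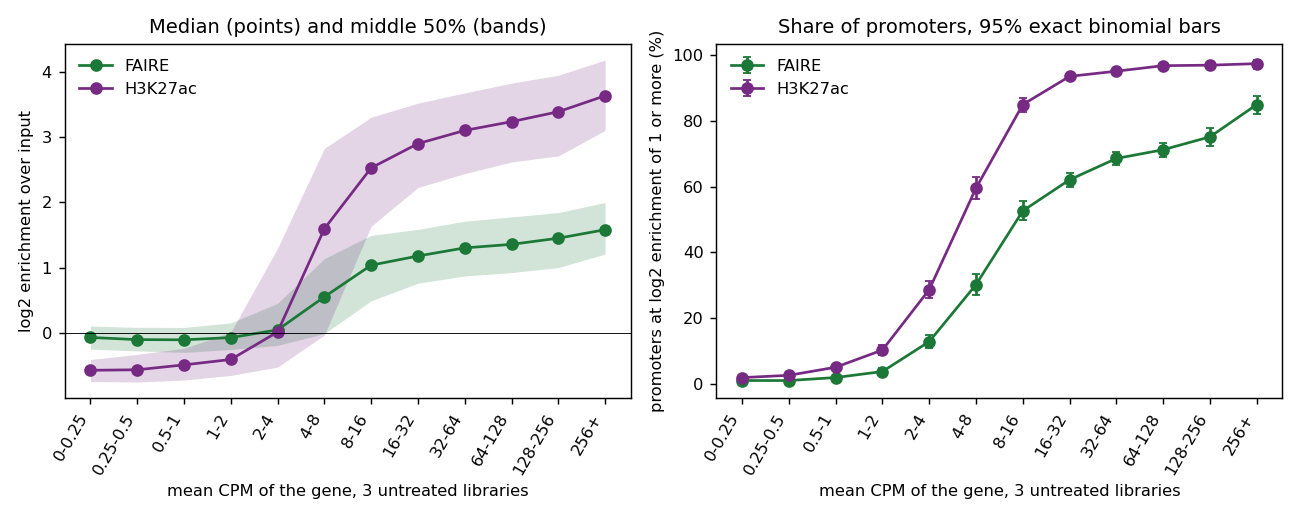
Left, median log2 enrichment over input of promoters (points) and the range of the middle 50% of promoters (bands) for FAIRE and H3K27ac, by mean CPM of the gene over the 3 untreated RNA libraries. Right, percent of promoters at a log2 enrichment of 1 or more with 95% exact binomial intervals; the H3K27ac share passes from 10.4% at 1 to 2 CPM to 84.9% at 8 to 16 CPM, and the FAIRE share stays below it in every bin.

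Across the 17813 genes, the Spearman correlation of transcript level was 0.717 with FAIRE and 0.776 with H3K27ac, and that of FAIRE with H3K27ac was 0.821. These are descriptions across genes, which share the same libraries and the same input, and the input itself correlated at 0.331 with level. Within the 8642 genes of 10 CPM or more the values were 0.191 for FAIRE and 0.263 for H3K27ac, and the 2 chromatin measures correlated at 0.384. In the 5158 genes under 1 CPM they were -0.04 and 0.118. With the level of each library alone, the correlation was 0.711 to 0.723 with FAIRE and 0.770 to 0.782 with H3K27ac, and without library 1 it was 0.717 and 0.777.

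Openness nearly always came with acetylation, and acetylation often came without openness at this threshold. Of 6608 promoters with a FAIRE enrichment of at least 1, 6572 also had an H3K27ac enrichment of at least 1 and 36 did not. Another 3057 promoters had H3K27ac at this threshold without FAIRE, and their genes had a median of 27.96 CPM, between the 49.4 CPM of promoters with both and the 0.721 CPM of the 8148 with neither. The ranges of the assays differ, since the H3K27ac medians reach 3.38 and the FAIRE medians 1.44, so the same threshold is a stricter one for FAIRE. The promoters with the highest FAIRE enrichment were those of Sp1 (3.80), which encodes a transcription factor that binds GC boxes, Khsrp (3.49), an RNA-binding protein of splicing and mRNA decay, Rnf5 (3.46), a ubiquitin ligase of the endoplasmic reticulum, Osbp (3.45), which binds oxysterols, and Hdgfrp2 (3.44). The highest H3K27ac enrichments were at Tsc22d2 (5.90), Actg1 (5.65), which encodes cytoplasmic gamma-actin, Brd2 (5.50), a reader of acetylated histones, Zc3h4 (5.48) and Pcbp1 (5.46), an RNA-binding protein. The 5 promoters highest in FAIRE had 1.86 to 3.87 in H3K27ac, and the 5 highest in H3K27ac had 1.20 to 2.24 in FAIRE. These 10 genes ran from 8.87 CPM (Rnf5) to 2761 CPM (Actg1).

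Most listed genes of fibroblast matrix and surface had high transcript levels, from a list chosen with earlier results of these data known. Of 29 such genes, from 0.665 CPM (Fap) to 7787 CPM (Col1a2), 27 had a mean of at least 10 CPM, against 46.0% of all genes measured. An H3K27ac enrichment of at least 1 was found in 25 and a FAIRE enrichment of at least 1 in 21, against 54.1% and 37.1% of all promoters. Their medians were 619 CPM, 3.49 in H3K27ac and 1.58 in FAIRE, beside 1.67 and 0.49 over all promoters used. Col1a2, a chain of type I collagen, had 8481, 7676 and 7202 CPM in libraries 1, 2 and 3 (mean 7787 ± 647 SD, n = 3), which made it second in the whole data set after the elongation factor gene Eef1a1 (13597 ± 2754 CPM, SD, n = 3). Its promoter had an enrichment of 2.10 in FAIRE and 4.22 in H3K27ac. Vim, the intermediate filament of mesenchymal cells, had 3871, 3479 and 3034 CPM with 2.32 and 4.62. Fn1, fibronectin, had 3538, 2448 and 2570 CPM with 2.28 and 4.34, and Col1a1, the other chain of type I collagen, had 3456, 2290 and 2211 CPM with 1.70 and 4.26. In each of these 4 genes all 3 libraries were far above 10 CPM. Besides Eef1a1, Col1a2 and Vim, the 10 most abundant genes were Actb, Eef2, Hsp90ab1, Hspa8, Flna, Rplp0 and Thbs1. These encode actin, a translation factor, chaperones, an actin crosslinker, a ribosomal protein and thrombospondin. They had 3308 to 6662 CPM, and their promoters had 3.19 to 5.15 in H3K27ac. Fn1 and Col1a1, with means of 2852 and 2652 CPM, were not among the 10.

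The transcription factors of mesenchyme had lower CPM than the matrix genes. Of 23 measured, 17 had at least 10 CPM, against 46.0% of all genes, 19 had H3K27ac and 16 had FAIRE at an enrichment of 1 or more, against 54.1% and 37.1% of all promoters, with medians of 40.4 CPM, 3.33 and 1.16. Prrx1, a homeobox factor of limb and craniofacial mesenchyme, had 1079, 1740 and 1337 CPM with 2.07 in FAIRE and 4.40 in H3K27ac. Twist2, a basic helix-loop-helix factor of dermal mesenchyme, had only 32.2, 38.4 and 36.4 CPM but 4.78 in H3K27ac, above the promoters of Vim and Col1a2, and 1.498 in FAIRE. Tead1, a partner of the YAP coactivator, had 155 ± 24.9 CPM, Zeb2, a repressor of E-cadherin, 138 ± 9.49 CPM, and Osr1 97.6 ± 10.6 CPM (SD, n = 3 each). Tcf21, Meox2 and Tbx5, factors of visceral, somite and heart or forelimb mesenchyme, had means of 0.234, 0.434 and 2.55 CPM and H3K27ac of -0.93, -0.39 and -0.55.

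The promoter sequences of Vim, Twist2 and Col1a2 are shown because these abundant or strongly acetylated identity genes differ in base composition. Each is the 250 bases before the start in RefSeq on build GRCm38.p6, all on the + strand: chr2:13574061-13574310 for Vim, chr1:91801211-91801460 for Twist2 and chr6:4505368-4505617 for Col1a2. The capitals mark CG dinucleotides and the motif TATAAA. The chromatin tables were made on build mm9 and give no positions, so a RefSeq start cannot be placed within a table's window.
Vim: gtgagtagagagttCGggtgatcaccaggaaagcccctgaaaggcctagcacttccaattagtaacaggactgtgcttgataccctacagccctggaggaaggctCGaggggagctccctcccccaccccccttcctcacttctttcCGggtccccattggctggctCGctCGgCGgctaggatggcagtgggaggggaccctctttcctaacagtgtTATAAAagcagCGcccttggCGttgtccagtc
Twist2: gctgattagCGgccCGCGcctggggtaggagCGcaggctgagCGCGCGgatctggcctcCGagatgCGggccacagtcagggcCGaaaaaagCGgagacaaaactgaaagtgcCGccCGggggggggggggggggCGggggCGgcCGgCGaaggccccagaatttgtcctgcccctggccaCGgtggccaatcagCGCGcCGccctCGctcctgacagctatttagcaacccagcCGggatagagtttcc
Col1a2: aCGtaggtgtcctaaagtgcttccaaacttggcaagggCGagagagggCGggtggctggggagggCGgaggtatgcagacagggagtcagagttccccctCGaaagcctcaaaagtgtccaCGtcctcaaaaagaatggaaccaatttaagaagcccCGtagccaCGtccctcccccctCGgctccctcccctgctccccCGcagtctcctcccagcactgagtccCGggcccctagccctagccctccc

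Vim had 8 CG and a TATAAA beginning 32 bases before the start, Twist2 had 23 CG, and Col1a2 had 11. TATAAA was searched on both strands of 300 bases (250 before and 50 after the start) and was found in 12.9% of the 11676 promoters with exactly 1 RefSeq start. On the gene's strand between 45 and 16 bases before the start it was found in 3.19%.

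Of the fibroblast list, 4 genes were under an H3K27ac enrichment of 1. Ddr2, a collagen receptor, had 583, 574 and 554 CPM, in close agreement between libraries, while its promoter window had 0.11 in H3K27ac and 0.20 in FAIRE. Lum, the proteoglycan lumican, had 15.8, 67.6 and 60.1 CPM with 0.59 in H3K27ac. Eln, elastin, had 5.58 ± 1.20 CPM with 0.91, and Fap, a protease of activated fibroblasts, had 0.665 ± 0.33 CPM with -0.49 (SD, n = 3 each). Of 19 housekeeping genes all had at least 10 CPM and an H3K27ac enrichment of at least 1, from 1.58 at Tfrc, the transferrin receptor, to 5.15 at Actb, and 17 had FAIRE at this threshold, with medians of 3.57 and 1.55. The H3K27ac medians of identity and housekeeping genes each lay within the other's interval, which were 2.94 to 4.11 and 2.85 to 4.09.

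Receptors for growth factors ranged from -1.13 to 4.90 in H3K27ac. Of 23 measured, 15 had at least 10 CPM, against 46.0% of all genes, and of the 22 promoters used 15 had H3K27ac and 11 had FAIRE at an enrichment of 1 or more, against 54.1% and 37.1% of all promoters. Pdgfra, a receptor for platelet-derived growth factor, had 492, 1353 and 1241 CPM with 3.33 in H3K27ac, and was lower in library 1 than in the others. Tgfbr3, a co-receptor for transforming growth factor beta, had 306 ± 66.1 CPM with 3.05, Bmpr1a, a receptor for bone morphogenetic proteins, 198 ± 17.6 CPM with 4.90, Igf1r, the receptor for insulin-like growth factors, 187 ± 23.9 CPM with 4.63, and Met, the receptor for hepatocyte growth factor, 189 ± 34.0 CPM with 3.997 (SD, n = 3 each). Egfr, the receptor for epidermal growth factor, had 15.6, 29.4 and 33.3 CPM with 0.78 in H3K27ac and -0.12 in FAIRE. Kit, Kdr and Erbb4, receptors of blood and pigment cells, endothelium, and nerve and heart, had 1.56, 2.05 and 1.35 CPM with H3K27ac of -0.95, -0.68 and -1.13.

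Marker genes of other lineages seldom reached 10 CPM and had few marked promoters. The 9 lists cover skeletal muscle, adipocytes, cartilage and bone, neurons and glia, epithelium, endothelium, blood, liver and gut endoderm, and pluripotent and germ cells. Of 140 genes measured, 4 had a mean of at least 10 CPM, against 46.0% of all genes, and the median was 1.08 CPM. At the lower level of 1 CPM or more there were 76, against 67.9% of all genes. Of 133 promoters used, 15 had an H3K27ac enrichment of at least 1, against 54.1% of all promoters, and 1, that of Sox9, had FAIRE at this threshold, against 37.1%. Examples with low levels in every library, chosen after their values were seen, follow. Myod1, which drives muscle differentiation, had 0.164, 0.0982 and 0.770 CPM, Pou5f1, of pluripotent cells, had 1.04, 0.687 and 1.41 CPM, and Cdh1, the epithelial cadherin, had 1.20, 0.933 and 2.44 CPM. Their H3K27ac values were -0.59, -0.52 and -0.58. Ptprc, the common antigen of white blood cells, had 1.85 ± 0.20 CPM, Pecam1, of endothelium, 1.89 ± 0.23 CPM, and Alb, serum albumin, 0.603 ± 0.21 CPM (SD, n = 3 each), with H3K27ac of -0.95, -0.28 and -0.90.

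A few markers of other lineages were acetylated. Sox9, a factor of cartilage and of several progenitor cells, had 29.6, 36.6 and 31.6 CPM with 4.07 in H3K27ac and 1.93 in FAIRE. Retn, which encodes the adipocyte hormone resistin, had 1.75, 2.60 and 3.63 CPM with 3.83, Gata4 and Gata6, zinc-finger factors of heart and endoderm, had 9.87 ± 0.41 and 6.27 ± 0.20 CPM with 2.60 and 2.79, and Sox5 had 9.90 ± 0.79 CPM with 2.14 (SD, n = 3 each). Esrp2, an epithelial splicing factor, had 1.86 ± 0.62 CPM with 2.76, Tnni2, a fast muscle troponin, had 0.519 ± 0.24 CPM with 2.48, and Des, desmin, had 1.09 ± 0.54 CPM with 1.54. Lpl, lipoprotein lipase, had 16.1, 19.6 and 22.1 CPM with 1.64, Pparg, the factor of adipocyte differentiation, had 2.22 ± 0.60 CPM with 1.19, and Flt1, a receptor for vascular endothelial growth factor, had 17.3, 12.7 and 14.6 CPM with 1.51. The other acetylated members were Csf1r (1.81), Krt14 (1.77), Dmp1 (1.71) and Cd68 (1.31). Among the most abundant members of each list, those without the mark were at most 10 CPM except for Ttn. They were Phex (9.99 CPM), Col11a2 (8.61), Vwf (5.58), Trp63 (5.44), Tubb3 (5.05), Mbp (4.61), Pkp1 (4.27), Vav1 (3.58), Sycp3 (3.23), Snap25 (2.70), Vil1 (2.61), Tie1 (2.49), Slc2a4 (2.28), Hnf4a (2.19), Dsp (2.14), Kdr (2.05), Acta1 (2.03), Myh4 (1.92), Rbfox3 (1.87), Ptprc (1.85), Pax3 (1.78), Esrrb (1.70), Zfp42 (1.19) and Nanog (1.14). Their H3K27ac ran from -1.07 at Vav1 to 0.99 at Snap25. The remaining gene above 10 CPM was Ttn, the very long titin gene, with 37.5, 21.99 and 47.5 CPM and -1.02 in H3K27ac. Neurons and glia and pluripotent and germ cells had no acetylated member, and their highest values were 0.99 at Snap25 and 0.14 at Nanog.

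**Figure D2:**
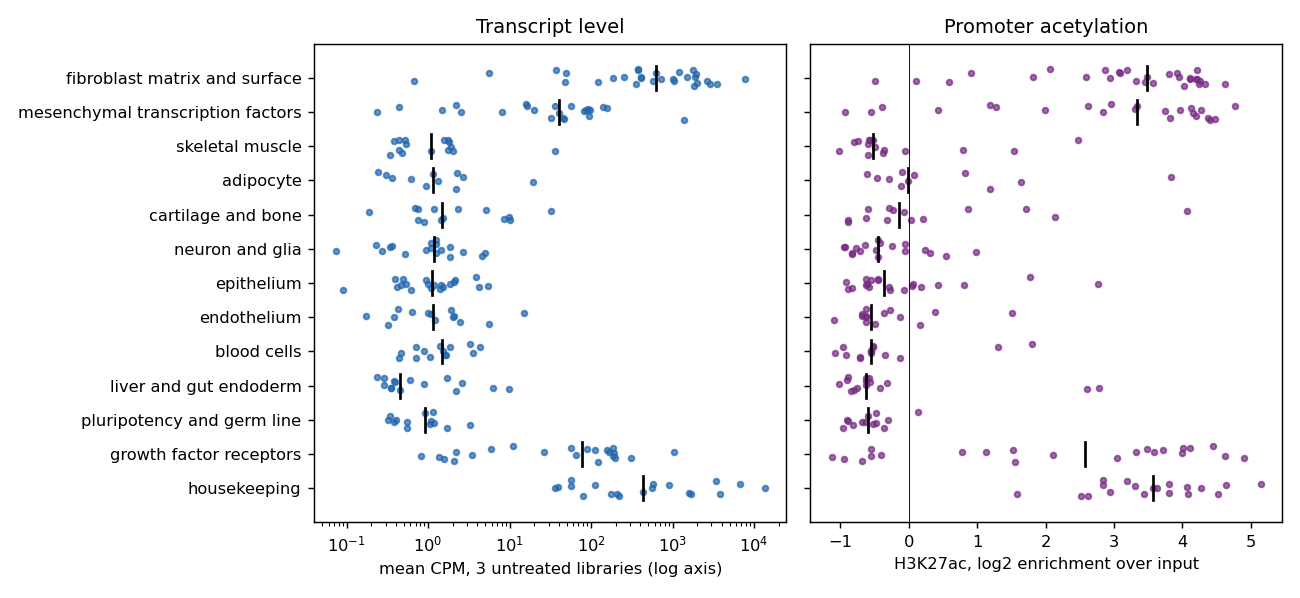
Mean CPM over the 3 untreated RNA libraries (left, log axis) and promoter H3K27ac as log2 enrichment over input (right) for each gene of 13 lists, 1 point a gene with random vertical offset; black bars are list medians. The fibroblast, mesenchymal, receptor and housekeeping lists have medians between 2.58 and 3.57 in H3K27ac, and the 9 lists of other lineages between -0.63 and -0.01.

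The promoters of Krt18, an epithelial keratin, and Alb are shown as unmarked examples of contrasting base composition: chr15:102027966-102028215 and chr5:90460620-90460869, GRCm38.p6, + strand, 250 bases before the start, with CG in capitals.
Krt18: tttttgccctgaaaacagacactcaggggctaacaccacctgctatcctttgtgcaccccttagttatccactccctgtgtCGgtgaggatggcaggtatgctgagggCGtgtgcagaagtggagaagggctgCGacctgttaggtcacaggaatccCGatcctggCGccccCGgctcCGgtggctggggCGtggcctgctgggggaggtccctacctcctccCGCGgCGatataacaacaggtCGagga
Alb: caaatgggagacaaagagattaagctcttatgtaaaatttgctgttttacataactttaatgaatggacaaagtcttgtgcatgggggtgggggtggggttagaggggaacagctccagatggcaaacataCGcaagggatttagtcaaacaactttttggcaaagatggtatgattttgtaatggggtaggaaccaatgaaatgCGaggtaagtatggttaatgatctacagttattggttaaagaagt

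Krt18 had 12 CG, more than the promoters of Vim and Col1a2, with 0.395 ± 0.10 CPM (SD, n = 3) and -0.63 in H3K27ac, and Alb had 2. A RefSeq sequence was held for 79.2% of the promoters used, under the 80% needed for a check of base composition over all of them, so that check is void, and the next values describe only the promoters with a sequence and exactly 1 start. Among those of genes under 1 CPM, 580 were CpG-rich (observed over expected CpG of at least 0.6), with a median H3K27ac enrichment of -0.45, and 3093 were CpG-poor, with -0.57. An enrichment of at least 1 was found in 10.5% of the CpG-rich and 1.68% of the CpG-poor. At 4 to 16 CPM the medians were 2.70 in 836 CpG-rich and 1.54 in 461 CpG-poor promoters, and at 16 CPM or more 3.23 and 2.82.

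Promoters discordant between the measurements were counted by kind. High and low were set as the upper and lower 25% of promoters in each assay, at 1.35 and -0.07 for FAIRE and 3.20 and -0.46 for H3K27ac. Of 2583 promoters high in both, 2347 (90.9%) belonged to genes of at least 10 CPM in every library, against 8338 of all 17813 promoters used. Of these 8338 genes, 62 (0.744%) had a promoter low in both, against 2879 of the 17813. No promoter was open without acetylation, and 3 were acetylated without openness: Fbxw7, a subunit of a ubiquitin ligase (3.67 in H3K27ac, -0.08 in FAIRE, 41.8 ± 1.45 CPM), Zbtb7a, a zinc-finger repressor (3.32, -0.08, 59.3 ± 3.95 CPM), and S100a3 (3.37, -0.19, 0.959 ± 0.095 CPM; SD, n = 3 each). These counts depend on the thresholds. With high as at least 1 and low as under 0, 132 promoters were expressed and unmarked and 154 acetylated without openness.

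**Figure D3:**
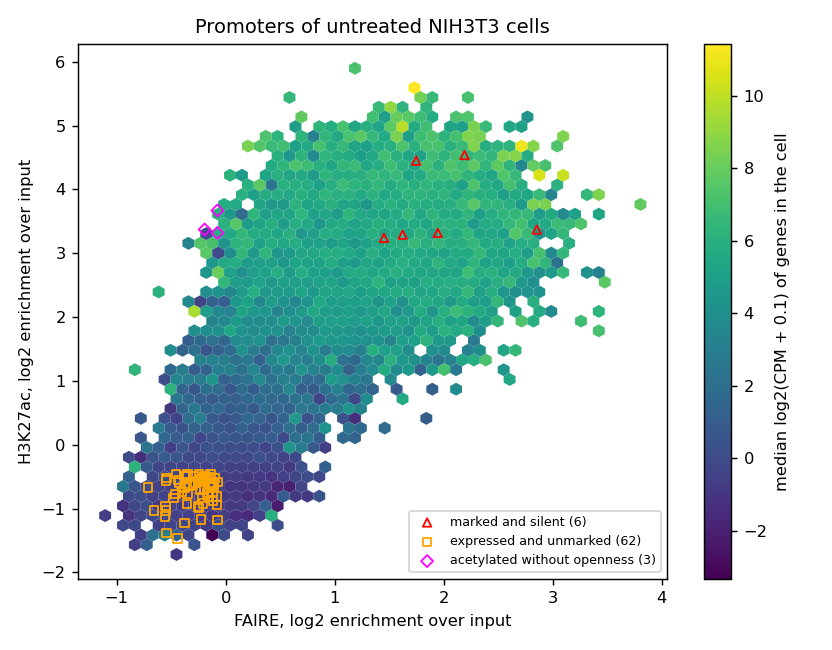
FAIRE against H3K27ac, both as log2 enrichment over input, for 17813 promoters; the colour of each hexagonal cell is the median log2(CPM + 0.1) of its genes. Outlined symbols are the 6 promoters marked and silent, the 62 expressed and unmarked and the 3 acetylated without openness.

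Of 146 promoters whose gene was under 0.1 CPM in every library, 6 (4.11%) were high in both assays: Npcd, Tpt1, Lrch4, Amd2, Tgoln2 and Rpl34-ps1. Over all promoters used, 2583 of 17813 were high in both. Npcd had 4.54 in H3K27ac and 2.19 in FAIRE with 0 reads in all 3 RNA libraries, which allows up to 0.164, 0.147 and 0.128 CPM. Lrch4 (3.37 and 2.85), Amd2 (3.32 and 1.94) and Tgoln2 (3.24 and 1.45) also had 0 reads in every library. Tpt1, which encodes an abundant protein of growing cells, had 0, 0 and 0.0428 CPM with 4.45 and 1.75, and Rpl34-ps1, named as a pseudogene, had 0, 0.0982 and 0 CPM with 3.29 and 1.62. Npcd overlaps Cbx6 and Nptxr in RefSeq. The authors' rule for reads that fit more than 1 gene is not given in the sources used here, so levels of 0 in such genes are uncertain. With silent taken as a mean under 1 CPM, a rule added after the data were seen, 30 of 5158 promoters qualified. Of the 29 found in RefSeq, 13 (44.8%) overlap another measured gene, against 14.96% of all promoters and 515 of 2575 of those high in both. Examples are C8g, within the same stretch as Fbxw5, and Rmnd1 beside Armt1. Among the 23 with a promoter sequence, 19 (82.6%) had another gene's start within 1000 bases. The same share was 18.2% over all promoters with a sequence and 39.9% over those high in both. The part of such overlaps and nearby starts in the marks was not tested.

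The 62 expressed and unmarked promoters were led by Zfp488, a zinc-finger gene, with 1129, 738 and 1906 CPM, -0.49 in H3K27ac and -0.38 in FAIRE. Tcf20, a transcriptional coregulator, had 464, 615 and 519 CPM with -0.63 and -0.30. Macf1, a giant linker of actin and microtubules, had 537, 445 and 456 CPM with -1.47 and -0.44, from 2 H3K27ac reads and 19 FAIRE reads beside 48 input reads. Xkrx had 247, 178 and 647 CPM with -0.67 and -0.71, Sept9, a septin of the cytoskeleton, had 197, 210 and 195 CPM with -0.52 and -0.20, and Trappc9, of a vesicle tethering complex, had 171, 141 and 233 CPM with -0.51 and -0.16. Zfp488 and Xkrx varied by more than 2-fold between libraries and were highest in library 3, and Tcf20, Macf1 and Sept9 varied less. The list also held Nfia, Chd8, Pde4b, Pde4d, Palld and Foxn3, named after their values were seen. Gimap1, Cxcr2, Cd84, Il2ra and Nkx2-1 were in it too, with means of 56.3, 36.8, 29.1, 18.0 and 17.9 CPM. They are not in the marker lists of other lineages. RefSeq gives more than 1 start to 22 of the 57 with a promoter sequence (38.6%), against 20.4% of the genes of at least 10 CPM in each library. Each gene has 1 window in the chromatin tables, and which start it covers was not tested. The number without library 1 was 67, without library 2 76 and without library 3 62.

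The RefSeq promoter of Macf1 is shown as that of an abundant member with few CG: chr4:123684361-123684610, GRCm38.p6, - strand, 250 bases before the start, CG in capitals.
Macf1: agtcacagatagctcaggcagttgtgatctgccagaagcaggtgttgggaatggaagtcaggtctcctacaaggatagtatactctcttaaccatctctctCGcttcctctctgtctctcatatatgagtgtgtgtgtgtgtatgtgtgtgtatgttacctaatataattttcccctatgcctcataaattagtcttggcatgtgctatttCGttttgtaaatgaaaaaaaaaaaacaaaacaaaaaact

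It had 2 CG, as did that of Alb. The RefSeq table gives Macf1 1 start, and whether the chromatin window covers it was not tested.

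Genes higher in library 1 than in both others are described by 5 examples known from contractile or activated fibroblasts, named after this difference was seen and so only a description. Acta2, smooth muscle actin, had 2627, 1010 and 918 CPM, Postn, periostin, had 717, 214 and 206 CPM, and Ctgf, a matricellular protein, had 287, 39.2 and 30.8 CPM. Tagln and Actg2, actin-binding transgelin and a smooth muscle actin, had 661, 309 and 253 and 246, 47.2 and 40.6 CPM. In each of these, libraries 2 and 3 lay close together and library 1 above them. Other contractile or matricellular genes looked at differed less. Cyr61, Myl9, Thbs1 and Tpm2 were highest in library 1 but varied by less than 2-fold. Cnn2 had 548, 508 and 445 CPM and Tpm1 959, 872 and 727 CPM. Cnn1 was lowest in library 1, with 19.1, 23.6 and 21.6 CPM. The 6 genes of 10 CPM or more with the widest range over libraries were all lowest in library 1. Chi3l1, a chitinase-like protein, had 2.25, 64.9 and 59.1 CPM, C3, the central complement component, had 7.45, 176 and 170 CPM, and Serpina3g, a serine protease inhibitor, had 1.48, 39.3 and 34.8 CPM. The chemokine genes Cxcl5 and Cxcl1 had 51.0, 744 and 582 and 10.8, 127 and 105 CPM, and Serpina3i had 1.37, 14.0 and 15.01 CPM. Among the fibroblast markers, Dcn, the proteoglycan decorin, had 90.5, 359 and 319 CPM.

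Since chromatin was pooled, no chromatin value belongs to a given RNA library. The promoters of Cxcl5 and Cxcl1 had 4.24 and 3.38 in H3K27ac, whereas those of C3, Chi3l1 and Serpina3g had -0.34, 0.53 and 0.05. The fibroblast genes Col6a1, Col6a2, Ddr2 and Sparc did not share the split: Col6a1, for example, had 1732, 1888 and 1838 CPM. Of the 29 fibroblast markers, 4 were at least 2-fold higher and 3 at least 2-fold lower in library 1. Among all genes of at least 10 CPM these shares were 0.590% and 1.11%. Of the markers, 96.6% were at 1 CPM or more both with and without library 1, against 67.9% of all genes measured.

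**Figure D4:**
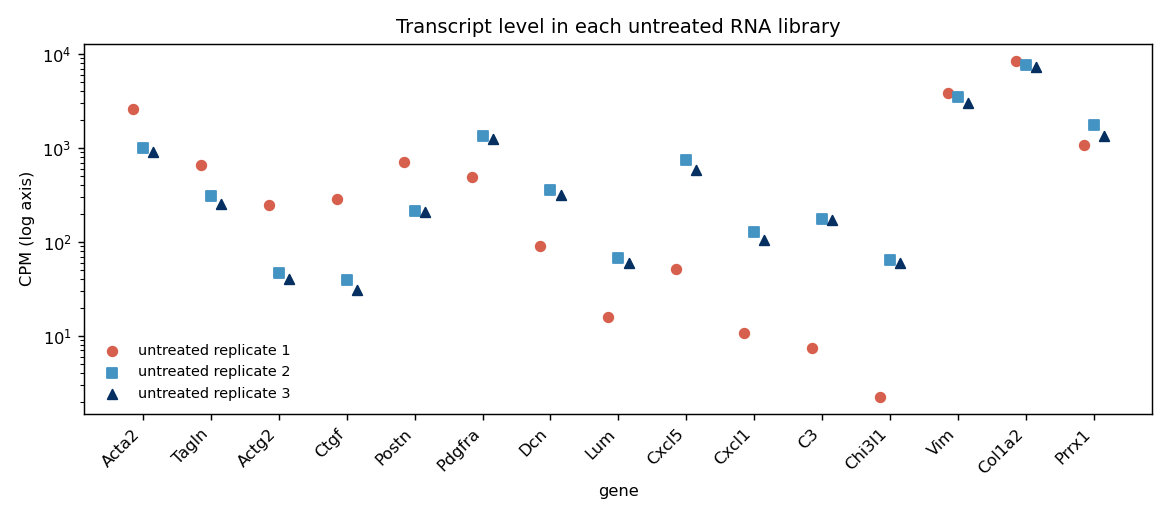
CPM (log axis) of 15 genes in each of the 3 untreated RNA libraries, chosen after the data were seen. Acta2, Tagln, Actg2, Ctgf and Postn are highest in library 1, Pdgfra, Dcn, Lum, Cxcl5, Cxcl1, C3 and Chi3l1 are lowest in it, and Vim, Col1a2 and Prrx1 vary by less than 2-fold.

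At genes with closed promoters, most of them low in CPM, the libraries differed in another order. In the 2879 promoters low in both assays, the median level was 0.548, 0.344 and 0.898 CPM in libraries 1, 2 and 3. Library 3 was the highest of the 3 in 80.7% of these genes and library 2 the lowest in 75.4%, against 12.03% and 8.32% in genes of at least 10 CPM in every library. The markers of other lineages had the same order, with library 3 highest in 113 of 140 genes and library 2 lowest in 94, and medians of 1.01, 0.687 and 1.52 CPM. The share of neuron and glia markers at 1 CPM or more was 61.1% with all libraries and 33.3% without library 3. A level near 1 CPM in these genes therefore differed with the library, and whether it comes from transcripts or from other reads was not tested.

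The INK4 locus and the Y chromosome were read as checks of the line. Cdkn2a and Cdkn2b, which encode inhibitors of the cyclin-dependent kinases that drive entry into S phase, had 0 reads in all 3 RNA libraries and in the FAIRE, H3K27ac and input pools. Of 19069 joined genes, 369 had 0 input reads in their window. Among these 369, 145 had no RNA read and 57 were at 1 CPM or more. Loss of the INK4 locus is well known in NIH3T3 stocks, and whether the zeros of Cdkn2a and Cdkn2b come from it or from the window's mapping was not tested. The neighbouring Mtap, of methionine salvage, had 317, 491 and 385 CPM with 37 input reads, 4.24 in H3K27ac and 1.4997 in FAIRE. Ddx3y, an RNA helicase gene of the Y chromosome, had 108, 91.2 and 77.1 CPM, Eif2s3y 43.8, 48.9 and 37.7 CPM, Kdm5d 32.04, 33.2 and 29.7 CPM and Uty 26.9, 24.9 and 22.4 CPM. Their windows held 4, 2, 2 and 6 input reads, under the minimum of 10, so their chromatin values are not used. Usp9y, Zfy1 and Zfy2 had 0.291, 0.0365 and 0.114 CPM.

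Hox genes encode factors that record position along the body axis. Of 39 measured, a set chosen after the data were seen, 12 had an H3K27ac enrichment of at least 1 and 6 a FAIRE enrichment of at least 1, beside 54.1% and 37.1% of all promoters. Those acetylated included Hoxa2, Hoxa3, Hoxa5, Hoxc4, Hoxc5, Hoxc9, Hoxd3, Hoxd8 and Hoxd9, and no gene of the Hoxb cluster reached the threshold. Hoxd8 had 31.4, 37.2 and 29.8 CPM with 4.99 in H3K27ac, from a window with 10 input reads. Hoxa3 had 8.65, 8.74 and 9.88 CPM with 4.48, Hoxa2 8.11, 10.9 and 11.5 CPM with 4.25, and Hoxd3 1.42, 2.70 and 2.27 CPM with 4.28. Hoxa7, next to Hoxa6, had 7.72, 13.5 and 11.0 CPM with 0.13, and Hoxa9, Hoxa10, Hoxa11 and Hoxa13 had -0.70, -0.52, -0.54 and -0.45. Hoxd3, Hoxa3 and Hoxa2 thus had H3K27ac above 4 at mean levels of 2.13, 9.09 and 10.2 CPM. Over all promoters, the middle 50% in H3K27ac ended at 1.30 for genes of 2 to 4 CPM and at 3.30 for 8 to 16 CPM.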

How the data were processed

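Only the untreated samples were used. The submitters' processing notes name Bowtie 0.12.9, TopHat, MACS2, DESeq2 and build mm9, without saying which step each served. The RNA values are whole-number read counts per gene, deposited by the authors without scaling. In the promoter tables, the columns used are the read count per window in the merged untreated pools and in the input, deposited by the authors, and their log2 enrichment, also deposited. A recomputation gave the same log2 values from the reads plus 16, divided by the input reads times a scale, plus 16; the scale was 0.657 for FAIRE and 0.706 for H3K27ac. There were 8 value columns that were not used. The labels list the RNA samples as genomic DNA, and their titles and protocol as RNA.

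CPM used TMM factors of 1.004, 0.938 and 1.061 (edgeR 4.0.16, R 4.3.3), and level is the mean of 3 libraries. Tables were joined by gene symbol in Python 3.11.15 with pandas 2.3.3, numpy 2.4.6 and scipy 1.17.1, and figures were drawn with matplotlib 3.10.9. The steps were tested on simulated data. Promoters under 10 input reads were left out. Of the symbols, 99.5% matched a RefSeq name, and promoter sequences are from RefSeq GRCm38.p6. No group of samples was compared, so no test was made. Pearson correlations of promoters used log2(CPM + 0.1). The alternatives were library totals alone, each library left out, 1 read added in place of 16, other input minimums, floors and thresholds, and leaving out promoters near another start. Genes named are, by rule, the 4 most abundant per list, the 2 most acetylated per list of another lineage, the 6 leading discordant promoters of each kind, the 10 most abundant genes, the 5 highest promoters per assay, the 6 widest library ranges, and all INK4, X and Y genes; others were chosen after their values were seen. The members and lists were chosen with earlier results of these data known. Xist is not analysed here, and some single genes are not reported here.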

Additional observations from a re-analysis of the deposited data

How the results depend on the processing

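No paired analysis was possible because only untreated samples were used and no groups were compared. Medians were judged by their binomial interval, correlations by their SD over the 3 libraries (0.00656 for FAIRE, 0.00678 for H3K27ac) and counts by a factor of 1.5. Of the values recomputed, 481 stayed within these limits and 98 did not. The sign changed for 5 values of medians whose interval did not hold 0, all in the lowest class of genes of 1 CPM or more, and for 6 values of medians whose interval held 0, in genes without a read, adipocyte and cartilage and bone. The cause was not tested for any of them. CPM by library totals alone moved none. List members at the floor are given as percents of members, a choice made after the data were seen.

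With at least 30 input reads, medians of FAIRE and H3K27ac were 1.451 and 3.029 in genes without a read (9 genes), -0.2209 and -0.678 under 1 CPM, 0.03583 and 0.3143 in the lowest class, 1.182 and 2.932, 1.33 and 3.177, and 1.491 and 3.446 in the next 3. The correlations were 0.6519 and 0.6929. Marked and silent promoters were 0 and those acetylated without openness 1. Fibroblast and receptor members at the floor were 100% each, and neuron and glia medians -0.3004 and -0.8236. With no minimum, medians under 1 CPM were -0.05806 and -0.4867, the correlations 0.7093 and 0.7653, and promoters acetylated without openness 5.

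With 1 read added in place of 16, H3K27ac medians were -1.243 in genes without a read, -1.444 under 1 CPM and -0.5398, 3.342, 3.785 and 4.076 in the 4 classes, and FAIRE medians -0.2023 under 1 CPM and 1.559, 1.825 and 2.011 in the upper 3 classes. The H3K27ac correlation was 0.7853. FAIRE and H3K27ac medians were 2.037 and 4.363 for fibroblast, 1.793 and 4.254 for mesenchymal, -0.2738 and -1.113 for neuron and glia, -0.3851 and -1.416 for blood, and 2.211 and 4.257 for housekeeping genes. The FAIRE median was 1.366 for receptors. H3K27ac medians were -1.099 for muscle, -0.8426 for epithelium, -1.238 for endothelium, -1.662 for liver and gut, and -1.535 for pluripotency and germ line.

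With a floor of 0.5 CPM, the H3K27ac median under the floor was -0.5707, and FAIRE and H3K27ac medians were -0.08719 and -0.455, 0.6289 and 1.837, and 1.262 and 3.044 in the lower 3 classes. Members at the floor were 100% for fibroblast and receptors and 92.86% for cartilage and bone. With a floor of 2 CPM, the H3K27ac median under it was -0.5213, and medians were 0.4003 and 1.242 in the lowest and 1.18 and 2.888 in the second class. Members at the floor were 13.33% for muscle, 16.67% for neuron and glia, 25% for epithelium, 21.43% for blood and 7.692% for pluripotency and germ line.

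Without promoters with another start within 1000 bases, FAIRE and H3K27ac medians in the 4 classes were -0.0399 and -0.3228, 0.9292 and 2.393, 1.249 and 2.938, and 1.407 and 3.307, the H3K27ac correlation was 0.7894, and 40 promoters were expressed and unmarked. With high as at least 1 and low as under 0, 12 promoters were marked and silent, 132 expressed and unmarked and 154 acetylated without openness. With silent as a mean under 1 CPM, added after the data were seen, 30 were marked and silent. With exactly 1 RefSeq start, also added, the counts were 3, 30 and 1.

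Leaving out each library gave ranges of -0.03921 to 0.0611 (FAIRE) and -0.3474 to -0.03225 (H3K27ac) for the lowest class, 0.9653 to 1.135 and 2.479 to 2.778 for the second, and 33.33 to 66.67% of neuron and glia members at the floor. Without library 3 the FAIRE median of the lowest class was 0.0611. CPM per coding length was not run, since no protein lengths were used here, and each gene has 1 promoter row, so the alternative for several rows changes nothing.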

Other observations

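Gene families, taken by symbol after the data were seen, are given beside the 46.0% of all genes that had at least 10 CPM, and the 54.1% and 37.1% of all promoters that had an H3K27ac and a FAIRE enrichment of at least 1. Of 77 genes of cytosolic ribosomal proteins, 75 had an H3K27ac enrichment of at least 1 and 70 a FAIRE enrichment of at least 1, with a median level of 827 CPM and median enrichments of 3.41 and 1.56. Of 39 proteasome subunit genes, 35 were acetylated and 29 open, with a median of 131 CPM. Of 48 promoters of clustered histone genes used, 44 were acetylated and 38 open, with medians of 2.43 in H3K27ac and 1.49 in FAIRE. Their median level was 29.6 CPM. Zinc-finger genes with Zfp symbols had a median of 19.7 CPM, and 255 of 295 were acetylated and 182 open.

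Sensory receptor genes lay at the other end. Of 919 odorant receptor promoters used, 1 had an H3K27ac enrichment of at least 1 (1.31) and 0 a FAIRE enrichment of at least 1, with a median level of 0.198 CPM. Of 177 vomeronasal receptor promoters, 1 was acetylated and 1 open, and Vmn1r65 had 36.2 CPM. Of 41 collagen genes, 19 had at least 10 CPM and 18 were acetylated. Of 45 keratin genes 0 had at least 10 CPM and 4 were acetylated, the highest level being 3.85 CPM at Krt14.

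The input was uneven at a few windows. That of Sfi1 held 1186 input reads, beside a median of 26, with 2917 H3K27ac reads (1.78) and 894 FAIRE reads (0.19).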
